A study of Mus musculus with 9 samples.

Results

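The genes described here encode neutrophil granule proteins and a neutrophil stefin, and were measured in whole lung of mice given interleukin-33 (IL-33) with or without LM8, an inhibitor of MyD88. They are *Mpo*, *Elane*, *Prtn3*, *Ctsg*, *Camp*, *Ngp*, *Ltf*, *Olfm4* and *Stfa2l1*, and all 9 have a row among the 34638 genes of the deposited table. These genes were chosen by name, with earlier results of these data known. The 9 mice were C57BL/6, with 3 in each of 3 groups. PBS mice received phosphate buffered saline. IL-33 mice received 0.5 µg recombinant mouse IL-33, an epithelial alarmin, into the trachea on each day from day 0 to day 3. IL-33+LM8 mice received the same challenges, and LM8 at 10 mg/kg into the peritoneum before challenge. Per the study's methods, PBS and IL-33 mice were females of 6 to 8 weeks, and lungs were taken 24 h after the last challenge. The age, sex and sampling time of the IL-33+LM8 mice, and whether the other groups received a vehicle injection, are not given in the sources used here.

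A neutrophil makes its granule proteins in order while it matures in the bone marrow. Myeloperoxidase (*Mpo*) and the serine proteases neutrophil elastase (*Elane*), proteinase 3 (*Prtn3*) and cathepsin G (*Ctsg*) fill the azurophil granules of promyelocytes. The proteins of the specific granules are made later, in myelocytes and metamyelocytes, among them the cathelicidin precursor (*Camp*), neutrophilic granule protein (*Ngp*), lactoferrin (*Ltf*) and olfactomedin-4 (*Olfm4*). Most of these mRNAs have declined by the time a neutrophil leaves the marrow, whereas mature cells keep mRNAs such as *S100a8*, *S100a9* and *Cxcr2*. Stefins are small inhibitors of cysteine proteases inside cells, and mice carry a cluster of them, *Stfa2l1* included, that is active in neutrophils. Lactoferrin is also secreted by epithelium, so that *Ltf* mRNA in lung need not come from neutrophils. In bulk tissue, fewer cells of a type and less RNA per cell cannot be told apart.

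The sequences upstream of the azurophil granule genes are shown because all 4 hold the same letters, GAGGAAG, the core of sites bound by the myeloid factor PU.1. Each is the 250 bases before the RefSeq transcription start site in GRCm38.p6, read 5′ to 3′ on the gene's strand, and capitals mark the motif matches. *Mpo* lies downstream of chr11:87793534-87793783 on the plus strand, *Elane* of chr10:79886062-79886311 on the plus strand, *Prtn3* of chr10:79879417-79879666 on the plus strand and *Ctsg* of chr14:56102575-56102824 on the minus strand.
Mpo: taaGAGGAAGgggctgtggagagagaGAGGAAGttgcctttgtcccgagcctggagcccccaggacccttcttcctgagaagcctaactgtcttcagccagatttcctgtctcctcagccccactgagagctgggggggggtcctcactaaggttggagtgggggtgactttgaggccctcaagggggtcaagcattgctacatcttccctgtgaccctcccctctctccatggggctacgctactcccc
Elane: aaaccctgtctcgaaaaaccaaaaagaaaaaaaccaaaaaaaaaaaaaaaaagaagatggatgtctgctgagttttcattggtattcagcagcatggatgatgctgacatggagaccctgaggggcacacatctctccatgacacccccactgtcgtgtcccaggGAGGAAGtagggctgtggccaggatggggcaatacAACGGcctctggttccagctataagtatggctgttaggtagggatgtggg
Prtn3: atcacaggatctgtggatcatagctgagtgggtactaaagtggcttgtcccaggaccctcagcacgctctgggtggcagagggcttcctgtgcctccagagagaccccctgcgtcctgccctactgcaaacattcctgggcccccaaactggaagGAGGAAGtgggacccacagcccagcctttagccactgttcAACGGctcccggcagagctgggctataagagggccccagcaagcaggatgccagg
Ctsg: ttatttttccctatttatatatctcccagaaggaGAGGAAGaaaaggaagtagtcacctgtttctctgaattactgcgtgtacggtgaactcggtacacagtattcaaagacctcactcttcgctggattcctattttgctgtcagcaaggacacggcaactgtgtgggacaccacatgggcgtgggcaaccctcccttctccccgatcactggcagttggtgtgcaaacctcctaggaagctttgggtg

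Motifs were searched on both strands, and no match overlapped another. GAGGAAG stood in 5 of the 9 windows, 2 times in that of *Mpo* and once in those of *Elane*, *Prtn3*, *Ctsg* and *Olfm4*. Among 32851 RefSeq promoter windows of this length, 10.6% held it. *Elane* and *Prtn3*, neighbours 3072 bases apart on chromosome 10, also shared the Myb-type letters AACGG, which lay from -50 to -46 in *Elane* and from -55 to -51 in *Prtn3*, counted from the start site. AACGG was found in none of the other 7 windows and in 14.5% of all windows. The motif letters were chosen with these sequences in view, and a match describes the sequence and is not a measured binding site.

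The windows of *Ngp* and *Ltf* are shown because these are the most abundant of the 9 mRNAs, lie on the same stretch of chromosome 9 and moved in opposite directions with LM8. Their capitals mark the C/EBP-type letters TTNNGNAA, which C/EBP factors of the granulocyte lineage bind. *Ngp* has its window at chr9:110419558-110419807 on the plus strand, and *Ltf* at chr9:111019042-111019291 on the plus strand.
Ngp: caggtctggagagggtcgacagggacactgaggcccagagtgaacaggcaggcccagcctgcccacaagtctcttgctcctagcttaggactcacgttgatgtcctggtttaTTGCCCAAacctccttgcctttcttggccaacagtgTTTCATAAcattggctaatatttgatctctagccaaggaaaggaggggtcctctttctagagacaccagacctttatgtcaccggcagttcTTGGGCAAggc
Ltf: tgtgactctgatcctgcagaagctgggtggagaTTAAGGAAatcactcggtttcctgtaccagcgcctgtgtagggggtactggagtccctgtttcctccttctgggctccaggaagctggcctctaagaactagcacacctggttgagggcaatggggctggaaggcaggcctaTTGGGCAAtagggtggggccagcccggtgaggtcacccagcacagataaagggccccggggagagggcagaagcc

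TTNNGNAA matched 3 times in *Ngp*, 2 times in *Ltf* and once each in *Olfm4* and *Stfa2l1*, so that 4 of the 9 windows held it, against 36.8% of all windows. None of the 4 azurophil gene windows held it, and the *Camp* window held none of the motifs searched.

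**Figure D1:**
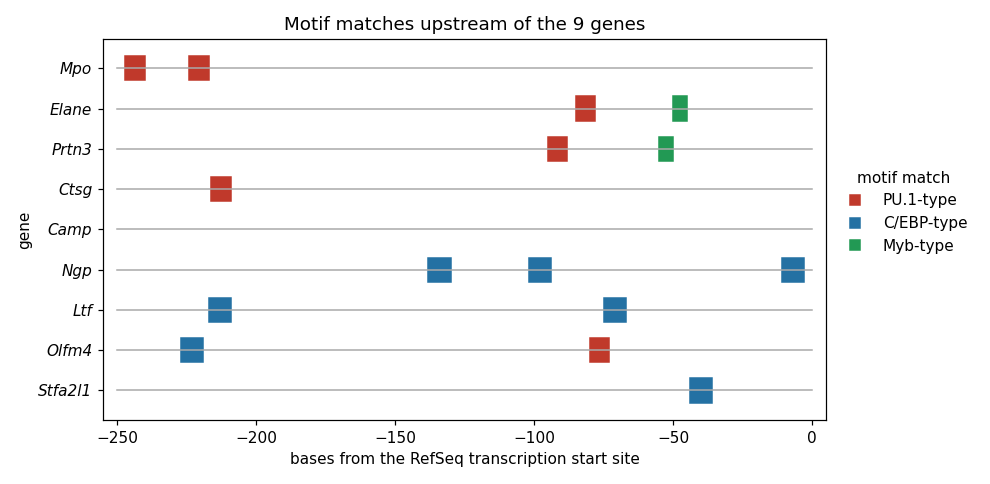
Positions of motif matches in the 250 bases upstream of each of the 9 genes, with bases from the RefSeq start site on the horizontal axis and 1 line per gene. Red boxes are PU.1-type, blue boxes C/EBP-type and green boxes Myb-type matches; the upper 4 genes each hold a red box, and Elane and Prtn3 each hold a green box nearer to the start site.

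Total counts per mouse ranged from 61767006 to 73869252 in PBS mice, from 53877663 to 66029783 in IL-33 mice and from 59753648 to 90607218 in IL-33+LM8 mice. The deposited counts were treated as estimates in which 1 read pair may weigh up to 4, since 9640 values were at 4, against 4618 at 3 and 3377 at 5. A count of 12, or 3 such read pairs, was taken as the floor in each mouse. Such a floor covers counting error only. A listed 0 can also be a failed estimate, because 2.54% of 13837 gene values were 0 where both other mice of the group had 20 to 60 counts. The lung-defining markers *Sftpc*, *Sftpb*, *Sftpa1*, *Ager*, *Hopx* and *Cldn5* were present in all mice, with a summed level of 14016 to 15062 FPKM (fragments scaled to transcript length and library size) in PBS, 7330 to 7582 in IL-33 and 12213 to 13403 in IL-33+LM8 mice.

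Of the azurophil granule mRNAs, *Mpo*, *Elane* and *Ctsg* were at or near 0 outside the IL-33+LM8 group, and *Prtn3* was low throughout. *Mpo* (ENSMUSG00000009350, chromosome 11 from 87684407 to 87695239 as the table gives it) was listed at 0 in all 3 PBS mice. Its counts were 0, 16 and 0 in IL-33 mice and 36, 57 and 55 in IL-33+LM8 mice. All 3 IL-33+LM8 mice stood above both other groups, and their FPKM of 0.167, 0.252 and 0.170 averaged 0.196 ± 0.0482 (SD, n = 3). Against the floor of 12 counts per library, which covers counting error only, *Mpo* was at least 3.87-fold higher in IL-33+LM8 than in PBS mice. It passed the filter on low counts only through its IL-33+LM8 counts. Its tests of IL-33+LM8 mice against either other group, by the quasi-likelihood test of edgeR or otherwise, are therefore no support of their own. The difference between IL-33+LM8 and IL-33 mice was not called (log2 fold change 2.98, standard error 1.31, adjusted p = 0.17, Benjamini-Hochberg over all genes tested). Limma on log2(FPKM + 0.1) called it (adjusted p = 0.028), as did edgeR without IL-33 replicate 2 (adjusted p = 0.0068), where the IL-33 mice left were both at 0. These calls are a description only.

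*Ctsg* (ENSMUSG00000040314, chromosome 14 from 56337338 to 56340031) was listed at 0 in all 6 PBS and IL-33 mice and had 7, 16 and 16 counts in IL-33+LM8 mice. *Elane* (ENSMUSG00000020125, chromosome 10 from 79722081 to 79724049) was listed at 0 in PBS mice, at 0, 12 and 0 counts in IL-33 mice and at 8, 6 and 40 counts in IL-33+LM8 mice. IL-33+LM8 and IL-33 mice thus overlapped for *Elane* but not for *Ctsg*. Both genes fell under the filter of a mean count of 10 over all mice and were left out of the test. Since most of these counts lie close to the floor, no fold is given, and a rise of either mRNA with IL-33 alone was not detectable at this depth.

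*Prtn3* (ENSMUSG00000057729, chromosome 10 from 79710310 to 79719008) was the azurophil granule mRNA found in every mouse. Its level was 0.181, 0.317 and 0.460 FPKM in PBS mice, 0.341, 0.887 and 0.602 in IL-33 mice and 0.830, 1.09 and 1.04 in IL-33+LM8 mice. IL-33 mice overlapped with both other groups, and IL-33+LM8 mice lay above all PBS mice. *Prtn3* was called higher in IL-33+LM8 than in PBS mice (log2 fold change 1.61, standard error 0.38, adjusted p = 0.024). This call was lost without IL-33+LM8 replicate 2 (adjusted p = 0.077), IL-33+LM8 replicate 3 (adjusted p = 0.076) or PBS replicate 2 (adjusted p = 0.069), while the fold change stayed between 1.34 and 1.97 whichever mouse was left out. Neither IL-33 against PBS (0.90, standard error 0.50, adjusted p = 0.19) nor IL-33+LM8 against IL-33 (0.69, standard error 0.38, adjusted p = 0.26) passed.

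**Figure D2:**
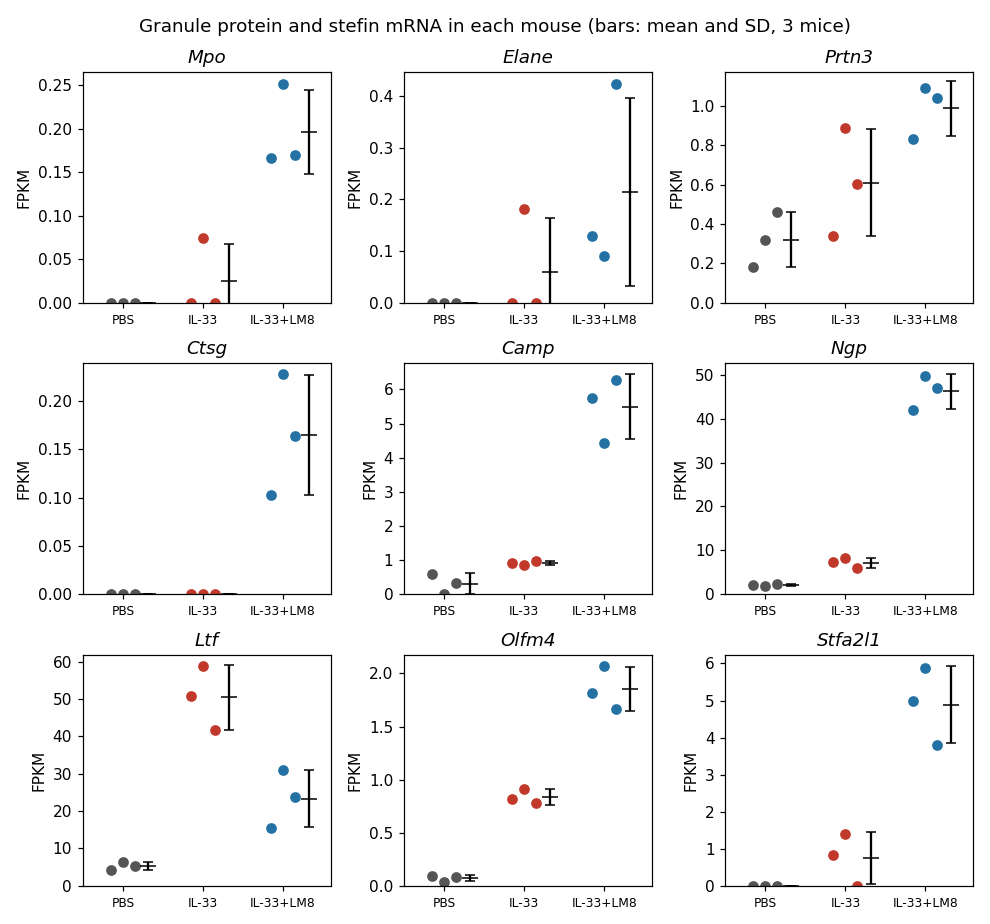
FPKM of the 9 genes, each panel on its own linear axis from 0; dots are single mice (grey PBS, red IL-33, blue IL-33+LM8), and the bars give the mean and SD of 3 mice, cut off at 0 where the SD exceeds the mean. All blue dots lie above the other groups except for Elane and Prtn3, where 1 red dot lies among them, and Ltf, whose highest values, 41.6 to 58.9 FPKM, are those of the IL-33 mice.

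The specific granule mRNAs *Ngp*, *Ltf* and *Olfm4* rose with IL-33, and with LM8 added *Ngp*, *Camp* and *Olfm4* were higher than with IL-33 alone, while *Ltf* was lower. *Ltf* (ENSMUSG00000032496, chromosome 9 from 110848339 to 110871835) encodes the iron-binding protein lactoferrin. It was counted 973, 1449 and 1420 times in PBS mice, 11982, 12732 and 8085 times in IL-33 mice, and 3347, 6893 and 7692 times in IL-33+LM8 mice. Every IL-33 mouse stood above all others, and every IL-33+LM8 mouse above all PBS mice. Mean *Ltf* expression was 5.39 ± 1.09 FPKM in PBS, 50.4 ± 8.64 FPKM in IL-33 and 23.4 ± 7.68 FPKM in IL-33+LM8 mice (SD, n = 3 each). It rose with IL-33 (log2 fold change 3.23, standard error 0.18, adjusted p = 1.6e-05) and was the only one of the 9 genes called lower in IL-33+LM8 than in IL-33 mice (-1.10, standard error 0.25, adjusted p = 0.020). The latter call was fragile. Without IL-33+LM8 replicate 1 the log2 fold change was -0.87, under the minimum of 1, and the adjusted p was 0.061 without IL-33+LM8 replicate 3, 0.055 when IL-33 replicate 1 was left out and 0.061 when it was IL-33 replicate 2.

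*Ngp* (ENSMUSG00000032484, chromosome 9 from 110248815 to 110252080), whose product is a cystatin-like granule protein, had 176, 152 and 222 counts in PBS mice, 606, 628 and 405 in IL-33 mice and 3200, 3934 and 5395 in IL-33+LM8 mice. The 3 groups were fully separate in that order. Its level was 2.16 ± 0.223, 7.11 ± 1.16 and 46.2 ± 3.96 FPKM, so that the mean was 3.29 times higher with IL-33 than with PBS, and a further 6.50 times higher with LM8 added. Both steps were called (log2 fold change 1.72, standard error 0.17, adjusted p = 0.00024, and 2.71, standard error 0.14, adjusted p = 7.3e-05). By mean FPKM, *Ngp* ranked 11911 among the genes of the table in PBS, 6907 in IL-33 and 908 in IL-33+LM8 mice, whereas *Ltf* ranked 7980, 851 and 2038.

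*Camp* (ENSMUSG00000038357, chromosome 9 from 109676447 to 109678685) had 31, 0 and 20 counts in PBS mice, 48, 42 and 42 in IL-33 mice and 273, 218 and 448 in IL-33+LM8 mice. The 3 groups did not overlap, but the rise from PBS to IL-33 did not pass the test (log2 fold change 1.52, standard error 1.07, adjusted p = 0.30). *Camp* was 0.920 ± 0.0543 FPKM in IL-33 and 5.49 ± 0.950 FPKM in IL-33+LM8 mice, a ratio of 5.97, and this rise was called (2.57, standard error 0.22, adjusted p = 0.00045). In a fit of all 9 mice it was not (adjusted p = 0.053). Against PBS, *Camp* was called higher in IL-33+LM8 mice (4.11, standard error 0.95, adjusted p = 0.022), but no longer without IL-33+LM8 replicate 1 (adjusted p = 0.054), 2 or 3 (both adjusted p = 0.059).

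*Olfm4* (ENSMUSG00000022026, chromosome 14 from 80221521 to 80260579), a glycoprotein carried by a subset of neutrophils, had 18, 8 and 20 counts in PBS mice, 166, 170 and 130 in IL-33 mice and 337, 398 and 465 in IL-33+LM8 mice. Again the 3 groups were fully separate. Its level rose from 0.0707 ± 0.0293 FPKM in PBS to 0.836 ± 0.0713 in IL-33 (log2 fold change 3.49, standard error 0.38, adjusted p = 0.00033). It was higher again with LM8, at 1.85 ± 0.204 FPKM (1.16, standard error 0.17, adjusted p = 0.0031).

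*Stfa2l1* (ENSMUSG00000059657, chromosome 16 from 35977181 to 35982323) was listed at 0 in PBS mice and at 24, 37 and 0 counts in IL-33 mice, and had 131, 160 and 150 counts in IL-33+LM8 mice. The IL-33+LM8 mice lay above all others, at 4.89 ± 1.04 FPKM. Against the floor, which covers counting error only and not shared sequence, *Stfa2l1* was at least 11.7-fold higher in IL-33+LM8 than in PBS mice. Its tests of IL-33+LM8 mice against either other group are given no weight, since most of the counts with which it passed the filter came from the IL-33+LM8 mice. The difference from IL-33 mice did not pass (log2 fold change 2.71, standard error 0.98, adjusted p = 0.10), nor did that between IL-33 and PBS mice (adjusted p = 0.056). Leaving out IL-33 replicate 3, which was listed at 0, brought both calls (adjusted p = 0.022 and 0.013), as did DESeq2 (adjusted p = 0.0076 and 0.0080). These calls too are a description only. These counts are uncertain, because 41.6% of the 31-base words of the *Stfa2l1* transcript also occur in other genes, chiefly *Stfa2*. In the transcripts of *Camp*, *Ngp*, *Ltf*, *Elane*, *Ctsg* and *Prtn3* no such word was shared.

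Of the 9 genes, 7 passed the filter on low counts. *Mpo* and *Stfa2l1* passed it wholly or largely through their IL-33+LM8 counts, so the numbers of members called are a description only. With IL-33 against PBS, 3 were called higher, where 9.94% of all 21522 genes tested were called higher and 5.82% lower. With IL-33+LM8 against IL-33, 3 were called higher and 1 lower, where 1.32% of all genes were called higher and 3.48% lower. With IL-33+LM8 against PBS, all 7 tested were called higher, where 5.19% of all genes were called higher and 1.67% lower. The FPKM of the groups did not overlap for 4, 7 and 9 of the 9 genes in these comparisons, where the same held for 56.3%, 38.2% and 42.2% of all genes tested. In IL-33+LM8 against IL-33, 6 of the 7 lay above and 1, *Ltf*, lay below. The 9 include *Elane* and *Ctsg*, which lie close to the floor and are not among the genes tested. A two-sided exact permutation test of 3 mice against 3 cannot give a p under 0.1. The comparisons share groups of mice and are not independent of each other.

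**Figure D3:**
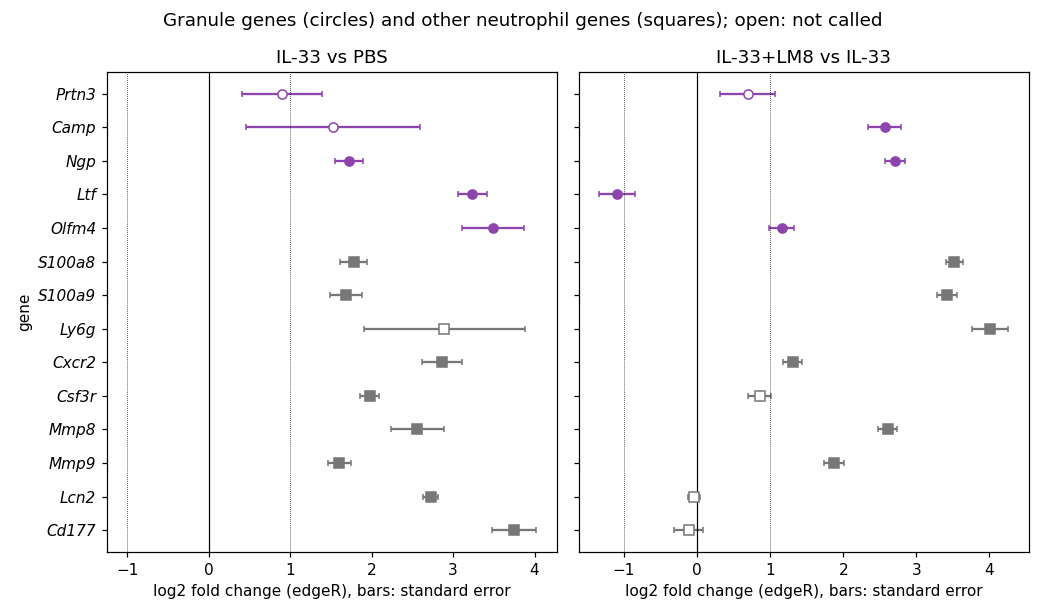
Log2 fold change with its standard error from edgeR for granule genes with counts in all groups (purple circles) and other neutrophil genes (grey squares), IL-33 against PBS on the left and IL-33+LM8 against IL-33 on the right; filled symbols are called, and dotted lines mark a log2 fold change of 1 in either direction. On the right, Ltf at -1.10 lies left of 0, while Camp and Ngp, at 2.57 and 2.71, lie between Mmp9 at 1.87 and S100a9 at 3.42.

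Of 16 genes of mature neutrophils listed, 8 rose and 3 fell with IL-33 (median log2 fold change 1.11, against -0.01 over all genes), and 10 rose with LM8 added (median 1.95, against -0.01). With IL-33+LM8 against PBS, 15 rose (median 2.99, against 0.0019). This list and those below were chosen with earlier results of these data known, so their counts and medians are a description only. *S100a8* and *S100a9*, the calprotectin subunits, rose by 1.78 and 1.68 with IL-33 and by a further 3.52 and 3.42 with LM8 on the log2 scale. *Cxcr2*, the receptor for neutrophil chemokines, rose by 2.87 and then by 1.31. The neutrophil surface antigen *Ly6g* was called with LM8 (4.01) and not with IL-33 (2.89, adjusted p = 0.051). *Fpr1* and *Fpr2*, formyl peptide receptors, were among those that fell with IL-33 (-1.95 and -1.40), and rose with LM8 added (2.98 and 2.91).

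Red cell markers moved as well. All 5, the globin genes *Hba-a1*, *Hba-a2*, *Hbb-bs* and *Hbb-bt* and the haem synthesis gene *Alas2*, fell with IL-33 (median -1.57) and rose with LM8 added (median 2.14). Their summed level was 7847 to 9293 FPKM in PBS, 2539 to 3188 in IL-33 and 10885 to 12337 in IL-33+LM8 mice. Between IL-33+LM8 and PBS mice, all 5 were higher with an adjusted p of 0.039 or less by edgeR, but 0 reached the minimum fold change by edgeR, DESeq2 or limma (median 0.48). In the same comparison *Ngp*, *Ltf* and *Olfm4* rose by 4.45, 2.16 and 4.66 on the log2 scale. The part of blood content in these results was not tested.

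To set granule mRNA against a neutrophil mRNA of the same library, each gene's FPKM was divided by that of *S100a9*. *Ngp* came to 13.2%, 11.4% and 20.7% of *S100a9* in PBS mice, 18.2%, 14.4% and 12.6% in IL-33 mice and 7.45%, 10.3% and 9.76% in IL-33+LM8 mice. *Ltf* came to 25.8%, 38.6% and 47.1% in PBS mice, 127%, 103% and 89.1% in IL-33 mice and 2.76%, 6.40% and 4.93% in IL-33+LM8 mice. For *Ngp* the PBS and IL-33 mice overlapped and the IL-33+LM8 mice lay below both, and for *Ltf* the 3 groups were separate, although with *Cxcr2* as denominator PBS and IL-33 mice overlapped for *Ltf* (510 ± 269% and 592 ± 16.0%). *Olfm4* averaged 0.501 ± 0.262%, 1.77 ± 0.237% and 0.367 ± 0.0559% in the order PBS, IL-33 and IL-33+LM8, and *Prtn3* 2.34 ± 1.54%, 1.23 ± 0.354% and 0.197 ± 0.0428%. *Camp*, listed at 0 in a PBS mouse, averaged 1.97 ± 0.393% in IL-33 and 1.08 ± 0.199% in IL-33+LM8 mice.

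All 5 ratios to *S100a9* were lower in every IL-33+LM8 mouse than in every IL-33 mouse, with log2 differences of -0.71 for *Ngp*, -0.86 for *Camp*, -2.27 for *Olfm4*, -2.63 for *Prtn3* and -4.57 for *Ltf* (two-sided exact permutation test, p = 0.1 each, the smallest possible, and 0.13 adjusted over 13 ratio comparisons). The denominator mattered. *S100a9* itself rose by 3.42 on the log2 scale with LM8 added, more than any of these 5 genes (-1.10 to 2.71). Any gene that rose less than *S100a9* has a lower mean ratio, so these tests do not single out granule genes. The share of all genes with a lower ratio was not tested. With *Cxcr2* below the line, *Ngp* was higher in IL-33+LM8 than in IL-33 mice (223 ± 38.2% against 83.5 ± 1.70%), as was *Camp* (26.1 ± 3.83% against 11.1 ± 2.74%). *Olfm4* and *Prtn3* then overlapped between these groups, and *Ltf* stayed lower (114 ± 46.3% against 592 ± 16.0%). Of the 5 genes, only *Ltf* had a lower ratio in every IL-33+LM8 mouse than in every IL-33 mouse with either denominator. That outcome was fixed by the levels. *Ltf* FPKM was lower, and *S100a9* and *Cxcr2* FPKM higher, in every IL-33+LM8 mouse than in every IL-33 mouse. The *Ltf* ratios therefore add nothing to the lower *Ltf* level, and any gene with lower levels would give the same.

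**Figure D4:**
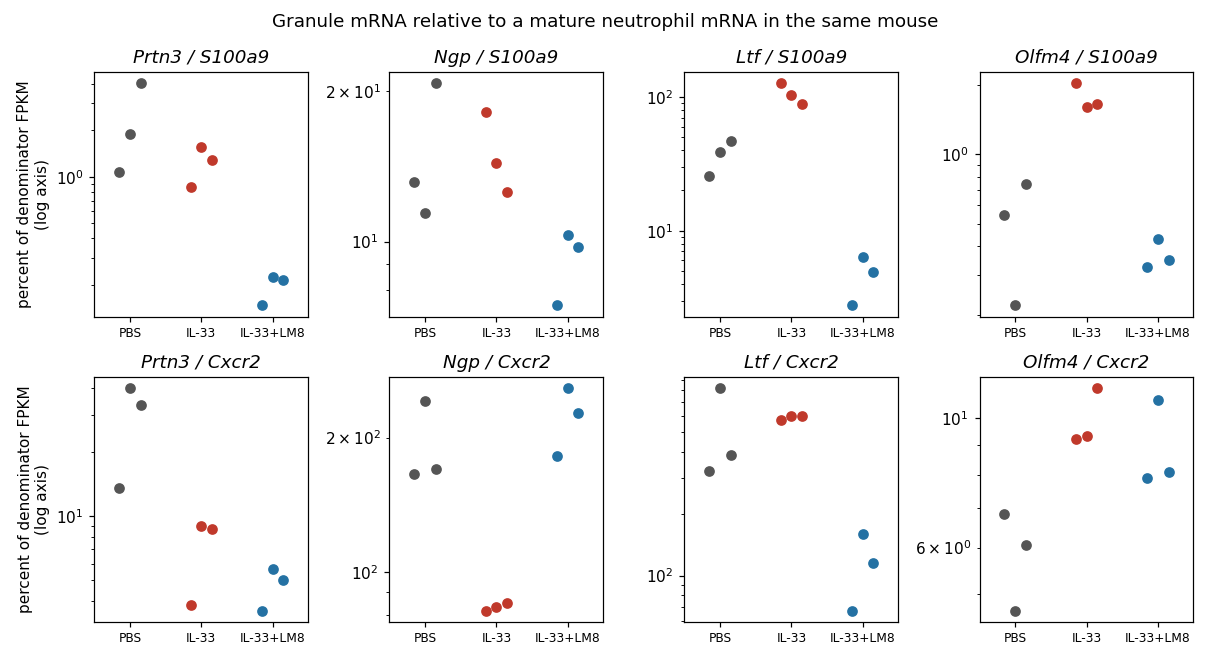
FPKM of Prtn3, Ngp, Ltf and Olfm4 as a percent of S100a9 (upper panels) or Cxcr2 (lower panels) FPKM in the same mouse, each panel on its own log axis; dots are single mice. IL-33+LM8 mice (blue) lie below IL-33 mice (red) for all 4 genes in the upper panels, but above them for Ngp in the lower panels.

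Of 12 other granule protein genes listed, 11 were tested, and 9 rose and 1 fell with IL-33 (median log2 fold change 2.56). With LM8 added, 2 rose and 2 fell (median 0.04), and in IL-33+LM8 against PBS mice 9 rose (median 2.67). The neutrophil collagenase *Mmp8* (2.61, standard error 0.13) and the gelatinase *Mmp9* (1.87, standard error 0.14) rose with LM8. The chitinase-like *Chil3* (-1.15, standard error 0.09) and the metalloprotease *Adam8* (-1.32, standard error 0.06), both also made by macrophages, fell. Lipocalin-2 (*Lcn2*), a specific granule protein also made by epithelium, rose with IL-33 (2.72) and was not called with LM8 (-0.05, standard error 0.08, adjusted p = 0.75). The neutrophil surface protein *Cd177* likewise rose with IL-33 (3.75) and was not called with LM8 (-0.12, standard error 0.19, adjusted p = 0.75).

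Of 8 genes of granulocyte precursors listed, 6 were tested. *Cebpe*, the factor that drives specific granule genes, and the repressor *Gfi1* rose with IL-33 (7.67 and 3.23). With LM8 added *Cebpe* fell (-2.55, standard error 0.16, adjusted p = 0.00016), and 0 of the 6 rose by edgeR, DESeq2 or limma, or at an unadjusted p under 0.05. By edgeR 4 of the 6 were lower at an unadjusted p under 0.05. Besides *Cebpe* these were *Gfi1* (-0.97), *Myb* (-0.45) and *Runx1* (-0.25), all short of the minimum fold change. *Cebpe* stood at 0.0328 ± 0.0567, 6.76 ± 0.192 and 1.13 ± 0.144 FPKM in PBS, IL-33 and IL-33+LM8 mice. The ficolin gene *Fcnb*, made by immature neutrophils, had 0, 8 and 20 counts in IL-33+LM8 mice and 0 in the others, and was not tested. *Cebpe* also acts in eosinophils, and the eosinophil markers moved the same way, with 6 of 7 higher in IL-33 than PBS mice and 7 of 7 lower in IL-33+LM8 than IL-33 mice (medians 6.56 and -2.30). Their summed level was 22.0 to 26.2 FPKM in PBS, 54.4 to 58.5 in IL-33 and 13.8 to 14.7 in IL-33+LM8 mice. *Ear1* made up most of the PBS sum (19.4 ± 2.61 FPKM), and in IL-33+LM8 against PBS 3 of the 7 markers were higher and 1, *Ear1*, was lower (median 3.65). The airway secretory epithelium, another source of lactoferrin, had 2 of 6 markers higher and 2 lower with IL-33, and 1 higher with LM8. The part of eosinophils in the *Cebpe* values was not tested, nor was that of eosinophils, epithelium or macrophages in the *Ltf* values.

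Of 15 stefin symbols listed, 8 had a row and 5 were tested, of which 3 rose with LM8 added. *Stfa2* was listed at 0 in all 6 other mice and had 49, 22 and 84 counts in IL-33+LM8 mice. Against the floor, which covers counting error only, it was at least 3.47-fold higher than in IL-33 mice. *Cstdc4* had 8, 18 and 13 counts in IL-33 and 101, 71 and 172 in IL-33+LM8 mice, and *Cstdc5* had 0 in all IL-33 mice against 61, 8 and 45. All 3 passed the filter through the IL-33+LM8 group, so this count is a description only. Of the 31-base words of *Stfa2*, *Cstdc4* and *Cstdc5*, 33.3%, 16.8% and 43.0% were shared with other genes. *Cstb*, cystatin B, found in most cells, rose with IL-33 from 28.0 ± 2.86 to 92.7 ± 7.41 FPKM (1.73, standard error 0.10) and was at 50.0 ± 8.97 FPKM with LM8 (-0.88, standard error 0.14, short of the minimum fold change). The cysteine cathepsins, the proteases that stefins inhibit, had 4 of 6 genes higher with IL-33, and 3 of 6 lower with LM8 added (*Ctsb* -1.01, *Ctsk* -1.51 and *Ctss* -1.63).

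Inhibitors and partners of the granule serine proteases changed mainly with IL-33. Of 12 inhibitor genes tested, 4 rose with IL-33, namely *Serpina3n*, *Serpina3g*, *Serpina3f* and the secretory leukocyte protease inhibitor *Slpi* (3.40, 3.97, 2.75 and 1.48), and 0 were called with LM8 added by edgeR, DESeq2 or limma, with 3 higher at an unadjusted p under 0.05. The 5 *Serpina1* genes among the 12 had 12 counts or fewer in PBS replicate 3, IL-33 replicate 1 and IL-33+LM8 replicate 3, against 780 to 4929 in the other mice, so that their fits had standard errors of 1.74 to 1.88. Cathepsin C (*Ctsc*), which activates the azurophil granule proteases, changed by less than the minimum (log2 fold change 0.93 with IL-33 and -0.51 with LM8, adjusted p = 3.1e-05 and 0.0021). The citrullinating enzyme *Padi4*, which decondenses chromatin in extracellular traps, rose with IL-33 (2.83) and was not called with LM8 (0.22, adjusted p = 0.20), and *Padi2* rose and then fell (2.77 and -1.23). All 6 genes of the phagocyte oxidase, which supplies myeloperoxidase with peroxide, rose with IL-33 (median 2.04). With LM8 added 0 were called by edgeR, DESeq2 or limma, although all 6 were lower at an unadjusted p under 0.05 (median -0.48).

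Markers of the remaining cell types gave mixed calls. With IL-33, 1 of 5 monocyte markers rose and 1 fell, 3 of 6 alveolar macrophage markers rose and 2 fell, 1 of 5 basophil and mast cell markers rose, and 1 of 4 platelet markers rose and 2 fell. With LM8 added, 1 monocyte, 2 alveolar macrophage and 2 platelet markers rose, and 1 alveolar macrophage marker fell.

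Over the 9 mice, Pearson's correlation of log2(FPKM + 0.1) placed each gene nearest to different partners, given as a description. *Ngp* was nearest to *S100a8* (r = 0.995), *Mmp9* (0.992) and *S100a9* (0.989), and *Olfm4* to *Cxcr2* (0.996), *A730020M07Rik* (0.992) and *Nlrp12* (0.991). *Ltf* was nearest to the transferrin receptor gene *Tfrc* (0.996), *Scimp* (0.993) and *Capza2* (0.993), and its correlations with the other 6 members tested were 0.33 to 0.77. *Camp* was nearest to *Pfkfb2* (0.970), *Hcar2* (0.968) and *Tnfsf13os* (0.966), and *Prtn3* to *Cdh23* and *Engase* (both 0.970) and *Slc14a1* (0.928). *Mpo* was nearest to *A4galt* (0.977), *P2ry13* (0.971) and *Ly6a2* (0.957), and *Stfa2l1* to *Gm38171* (0.968), *Pilrb2* (0.967) and *B230303A05Rik* (0.965). The points share 3 groups of mice, so genes that differ between the groups alike correlate.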

How the data were processed

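Lung RNA of 9 mice was sequenced, and the authors deposited 1 table with an estimated count and an FPKM value per gene and mouse. Per the labels' processing notes, the tools were HISAT2 2.0, Bowtie 0.12.2 and StringTie 1.3.0, and the build mm10. Of 32643 genes matched by ID to GENCODE M21, 1.77% had the same coordinates as in GRCm38, so the table's coordinates are given as deposited, and sequences come from RefSeq GRCm38.p6. The deposited counts are whole numbers, but 31.1% of the 67196 values from 1 to 20 were multiples of 4 (9640 values at 4, against 4618 at 3 and 3377 at 5), so they were treated as estimates. The design had foreseen read counts; the test was kept, and counts divided by 4 were added as an alternative after seeing the data. FPKM values are per length and library, as the authors computed them.

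Each comparison was fitted on its 6 mice with edgeR 4.0.16 (R 4.3.3, TMM, quasi-likelihood test) over 21522 genes with a mean count of at least 10 over all mice. Calls needed an adjusted p under 0.05 (Benjamini-Hochberg, over all genes tested) and a log2 fold change of 1 or more in either direction. The standard error is the log2 fold change divided by the square root of F. Fold multiples are ratios of mean FPKM, with no pseudocount. On simulated counts for IL-33 against PBS, 200 of 200 changed genes were recovered with 0 false calls. For IL-33+LM8 against IL-33 it was 199 with 2 false calls, and for IL-33+LM8 against PBS 199 with 3. The simulation gave all genes the same dispersion, set all changes above the minimum fold change and held no failed estimates. It therefore checks the fit only, and does not show recovery for the low members in these data.

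The members and gene lists were chosen with earlier results of these data known. All members, any gene of the lists, and for each member tested the 3 genes with the highest correlation may be named. Alternatives covered size factors, DESeq2 1.42.0, limma 3.58.1, filters, thresholds, a fit of all mice, other denominators, leaving out each mouse and the replicate block. The variance between libraries of a group was 21.9 or more times that of sampling, so no copies were found; that they are separate mice is taken from the labels. Mice with the same replicate number deviated together between IL-33+LM8 and PBS (correlations 0.298 to 0.619). As a set they did not between IL-33 and PBS (-0.475 to 0.402) or IL-33+LM8 and IL-33 (-0.396 to 0.201). Across different numbers, IL-33 replicate 1 deviated together with PBS replicate 3 (0.691) and with IL-33+LM8 replicate 3 (0.657). These are the mice low in the *Serpina1* genes, and their links were not modelled. The pairing by number is a reading of the data, since the labels do not say that a number marks a shared batch. The stefin symbols with no row in the table, and *Ms4a3*, were not analysed here.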

Additional observations from a re-analysis of the deposited data

How the results depend on the processing

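Across the alternatives, 286 log2 fold changes of the 7 genes tested kept their direction and their side of the threshold, 10 passed it newly and 15 no longer did. *Elane* and *Ctsg* are not in this count. None reversed. The number of genes called moved most with the minimum fold change, without which it was 9411 (4848 higher, 4563 lower) for IL-33 against PBS, 4308 (2090 and 2218) for IL-33+LM8 against IL-33 and 4842 (2833 and 2009) for IL-33+LM8 against PBS, against 3393, 1033 and 1477 with it. With limma on log2(FPKM + 1), which understates low genes, it was 1738 (1278 and 460), 437 (91 and 346) and 585 (506 and 79). With each mouse left out, 3055 to 3371, 825 to 1032 and 1135 to 1622 genes were called, and 3 to 4, 3 to 5 and 5 to 7 of the 9 members. With the replicate block, 3103, 837 and 1716 genes and 3, 4 and 7 members were called, and the block changed no call of a member. The block joins equal replicate numbers, so it does not test the links of IL-33 replicate 1 with PBS replicate 3 and IL-33+LM8 replicate 3. On log2(FPKM + 1) the changes of *Olfm4* with IL-33 (0.78) and with LM8 (0.63), and those of *Mpo* (0.26) and *Prtn3* (0.59) against PBS, were under the minimum fold change. *Mpo* in IL-33 against PBS mice could not be fitted without IL-33 replicate 2, since all counts left were 0. With no filter, LM8 against IL-33 alone gave a call for *Ctsg* (adjusted p = 0.040), which is a description only, since all its counts were in IL-33+LM8 mice.

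The log2 ratio of *Ngp* to *S100a9*, IL-33 against PBS, was 0.03, ranged from -0.15 to 0.28 with each mouse left out (-0.12 without IL-33 replicate 1, -0.049 and -0.15 without PBS replicates 1 and 2), and was -0.056 with *S100a8* and -1.18 with *Cxcr2* as denominator. With *Cxcr2*, IL-33+LM8 against IL-33 reversed for *Ngp* (1.40) and *Camp* (1.25), and IL-33+LM8 against PBS for *Ngp* (0.22) and *Olfm4* (0.61). With *S100a9*, the last ranged from -0.80 to 0.072 with each mouse left out, the highest being without PBS replicate 3. The cause was not tested. Depth limits *Mpo*, *Elane* and *Ctsg*, whose counts in IL-33 and PBS mice did not exceed 16.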
